A study of Mus musculus with 96 samples.

Results

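The genes described here are 10 antioxidant genes of the NRF2 pathway in C2C12 cells, a mouse muscle cell line that proliferates as myoblasts and fuses into myotubes in low serum. They are Nfe2l2, Hmox1, Nqo1, Osgin1, Gclc, Gclm, Gsr, Txnrd1, Srxn1 and G6pdx, and they were taken by symbol from the 54146 mouse genes of the RNA-seq count table. All 10 were in the table, and all 10 had enough counts to be tested in each of the 6 models used. The 96 samples cover 35 conditions with 2 or 3 samples each, and the study asked how muscle cells respond to different mitochondrial defects.

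The 4 stable myoblast lines, made with lentivirus, carried a doxycycline-inducible gene and all received 300 ng/ml doxycycline. The control line made luciferase. LbNOX is a bacterial enzyme that burns NADH to water in the cytosol, mitoLbNOX is the same enzyme sent to the mitochondrial matrix, and NDI1 is a yeast NADH dehydrogenase that piericidin does not block. The control line received DMSO, 0.5 µM piericidin (complex I), 0.5 µM antimycin (complex III) or 1 µM oligomycin (ATP synthase) for 10 hr, or 20 µg/ml chloramphenicol (mitochondrial translation) or DMSO for 48 hr in medium with uridine. LbNOX cells received all of these, mitoLbNOX cells DMSO, piericidin or antimycin, and NDI1 cells DMSO or piericidin. Untransduced cells were kept in low serum for 1 day (post-mitotic cells, called day 1 cells) and given DMSO, piericidin or oligomycin. Others were kept in it for 4 days (myotubes) and given the same, antimycin, 0.5 µM BAM15 (an uncoupler), 5% oxygen or combinations with oligomycin. Myotubes in 5% oxygen were moved there the night before treatment and stayed there throughout it. Further myotubes carried adenoviral GFP, or GFP with LbNOX, and received DMSO, piericidin or oligomycin. Treatments of day 1 cells and myotubes lasted 10 hr. NRF2 and KEAP1 were altered in no group. Nothing in the sources used here says that the samples of a group were separate cultures, so p-values measure the spread between these samples, which may be technical.

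NRF2, the product of Nfe2l2, is a transcription factor that KEAP1 holds in the cytosol and hands to the proteasome. When reactive cysteines of KEAP1 are modified, NRF2 accumulates, pairs with a small MAF protein and binds antioxidant response elements (AREs) near genes of glutathione synthesis, thioredoxin reduction, NADPH supply and heme breakdown. BACH1 competes for many of the same elements and is known as a strong repressor of Hmox1.

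The genes lie on several chromosomes (GRCm38, GENCODE M21). Hmox1 (ENSMUSG00000005413) spans chr8:75093621-75100589, Nqo1 (ENSMUSG00000003849) chr8:107388225-107403206 and G6pdx (ENSMUSG00000031400) chrX:74409483-74429194. The span of G6pdx overlaps that of Ikbkg on the opposite strand. Since the libraries carried no strand, reads from any exon sequence that both genes hold could not be told apart by strand. Whether their exons overlap was not checked. Ikbkg had a median of 748.5 counts per sample. G6pd2, a near-identical copy of G6pdx, never exceeded 3 counts, against at least 136 for G6pdx. Gclm overlaps a pair of minor genes, Gm17494 and Gm6061, with medians of 32.5 and 2 counts.

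RefSeq promoter windows (GRCm38.p6, 250 bases before to 50 after a start) were at hand for 7 of the 10 genes, as 9 windows, since Txnrd1 had 3 starts. Hmox1, Gclc and Gsr had no window. The ARE core TGACNNNGC, searched on both strands, was in 5 of these 9 windows (Nfe2l2, 240 to 232 bases before its start, Gclm, Srxn1, G6pdx and 1 of the 3 of Txnrd1), and in 12.4% of all 32851 promoter windows. The AP-1 motif TGANTCA, which the extended ARE often contains, was in 2 of the 9 windows (Osgin1 and Srxn1) and in 7.81% of all windows, and TGATGNAA, the composite C/EBP-ATF site, was in none of the 9 windows and in 3.97% of all. The 150 bases before the start are shown for the 5 genes with a match to either of the first 2 motifs in them, and for Nqo1 as one without (for Txnrd1 at the start that has the match), with the matches in capitals. The regions are chrX:74428881-74429030, minus strand for G6pdx; chr3:122245407-122245556, plus strand for Gclm; chr10:82859056-82859205, plus strand for Txnrd1; chr2:152105374-152105523, plus strand for Srxn1; chr8:119436997-119437146, plus strand for Osgin1 and chr8:107403206-107403355, minus strand for Nqo1.
G6pdx: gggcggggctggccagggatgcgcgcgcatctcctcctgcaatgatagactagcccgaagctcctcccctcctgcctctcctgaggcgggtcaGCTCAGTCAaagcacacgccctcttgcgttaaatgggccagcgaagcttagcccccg
Gclm: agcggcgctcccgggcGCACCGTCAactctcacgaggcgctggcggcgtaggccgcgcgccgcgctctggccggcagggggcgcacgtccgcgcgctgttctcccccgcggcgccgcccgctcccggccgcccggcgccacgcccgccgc
Txnrd1: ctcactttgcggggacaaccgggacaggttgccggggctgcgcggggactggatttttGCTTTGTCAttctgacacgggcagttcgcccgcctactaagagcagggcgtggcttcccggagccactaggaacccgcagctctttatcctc
Srxn1: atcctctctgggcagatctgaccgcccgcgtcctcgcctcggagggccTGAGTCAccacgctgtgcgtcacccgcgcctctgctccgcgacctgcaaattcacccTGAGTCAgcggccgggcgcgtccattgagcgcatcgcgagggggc
Osgin1: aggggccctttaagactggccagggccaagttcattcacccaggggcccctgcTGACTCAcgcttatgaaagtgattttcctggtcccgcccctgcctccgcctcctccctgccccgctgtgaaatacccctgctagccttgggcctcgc
Nqo1: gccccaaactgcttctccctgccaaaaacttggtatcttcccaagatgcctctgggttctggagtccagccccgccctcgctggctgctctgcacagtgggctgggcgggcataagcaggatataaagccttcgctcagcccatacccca
The ARE core of G6pdx, Gclm and Txnrd1 lay on the minus strand of the gene, 57 to 49, 134 to 126 and 92 to 84 bases before the start. Srxn1 held AP-1 matches at 102 to 96 and 45 to 39 bases before its start and Osgin1 at 97 to 91. Nqo1 had no match in this window. A match is only a run of letters and does not show that a factor binds.

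Each sample held 6458295 to 15366745 estimated counts (median 10336588.5). Levels are CPM, counts relative to the total of a library, scaled by TMM over all samples, and differences are log2 fold changes from the quasi-likelihood test of edgeR with their standard errors (SE) and p-values adjusted over all genes tested. A gene is called at an adjusted p under 0.05. Each call was computed again under 8 or 9 alternatives, among them leaving out all samples of 1 replicate number, and the number of these that ended a call is given where it was lost. Beside the first count for a comparison stands the share of all tested genes that were called in it. The 5 myotube markers (Myog, Ckm, Acta1, Myh3 and Tnnt3) summed to 9.12 to 91.8 CPM in the 45 myoblast samples, 9348 to 13321 CPM in the 42 myotube samples and 9954 to 10677 CPM in the 9 day 1 samples. Of the 5 markers fixed for myoblasts, Mki67 alone had its highest median in myoblasts. Myod1, Myf5, Pax7 and Des had higher medians in myotubes and day 1 cells, and the list summed to a median of 554 CPM in myoblasts, 3521 CPM in myotubes and 2268 CPM in day 1 cells, so this list did not mark the myoblasts. Each sample correlated at 0.970 or higher over log2 CPM with the mean of the other samples of its condition. The lowest values were in GFP myotubes, where that mean is only 1 sample. Nfe2l2 and Hmox1 never fell under 676 and 199 counts in a sample, whereas Gclc (9 to 151) and Gclm (19 to 327) were low. Gsr varied most between replicates, with a median coefficient of variation of 25.3% over the conditions, against 4.61% for Nfe2l2.

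Inhibiting complex I or complex III in control myoblasts moved the NRF2 genes in both directions. Hmox1 rose many-fold and Nfe2l2 itself rose, whereas Nqo1 and G6pdx fell. Hmox1 encodes heme oxygenase 1, which opens heme to biliverdin, iron and carbon monoxide. Its level was 42.0, 41.2 and 38.4 CPM with DMSO, 113, 97.7 and 104 CPM with oligomycin, 282, 300.0 and 292 CPM with piericidin and 546, 540.2 and 540.0 CPM with antimycin. The 4 groups did not overlap, and antimycin was the highest. The rise was 13.8-fold for antimycin (log2 fold change 3.79 ± 0.077 (SE), adjusted p = 6.13e-27), 7.36-fold for piericidin (2.88 ± 0.075, adjusted p = 3.81e-24) and 2.61-fold for oligomycin (1.38 ± 0.073, adjusted p = 3.83e-16). Antimycin exceeded piericidin by 0.91 ± 0.068 (adjusted p = 5.51e-12), and piericidin exceeded oligomycin by 1.496 ± 0.070 (adjusted p = 9.7e-17).

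Nfe2l2 followed the same order at a smaller scale. It was at 126, 111 and 125 CPM with DMSO, 142, 137 and 136 CPM with oligomycin, 157, 176 and 163 CPM with piericidin and 195, 198 and 171 CPM with antimycin. Each inhibitor group lay above the DMSO group. The log2 fold change was 0.69 ± 0.086, adjusted p = 4.57e-08 for antimycin, 0.49 ± 0.086, adjusted p = 1.26e-05 for piericidin and 0.21 ± 0.086, adjusted p = 0.0424 for oligomycin, and the last call was lost under 4 of 9 alternative settings. Antimycin and piericidin groups overlapped and did not pass the test against each other (0.20 ± 0.086, adjusted p = 0.0743).

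Nqo1 and G6pdx, both classical targets, went the other way. Nqo1, an NAD(P)H-dependent quinone reductase, was at 71.5, 75.4 and 78.8 CPM with DMSO, 36.1, 41.1 and 40.2 CPM with piericidin and 38.7, 37.99 and 35.2 CPM with antimycin. It fell with both (-0.91 ± 0.072, adjusted p = 3.36e-12 and -0.97 ± 0.072, adjusted p = 7.59e-13). The difference between the pair was -0.060, with a 95% interval of -0.21 to 0.091. With oligomycin Nqo1 was at 62.9, 63.9 and 64.6 CPM, a fall of a smaller size (-0.23 ± 0.070, adjusted p = 0.00779). G6pdx encodes glucose-6-phosphate dehydrogenase, which supplies NADPH at the entry of the pentose phosphate pathway. It was at 149, 147 and 144 CPM with DMSO, 109, 108 and 87.7 CPM with oligomycin, 87.0, 89.9 and 78.0 CPM with piericidin and 49.9, 53.3 and 55.8 CPM with antimycin. All 9 inhibitor samples lay under the DMSO samples, and the fall was -1.43 ± 0.067, adjusted p = 1.33e-17 for antimycin, -0.75 ± 0.066, adjusted p = 2.71e-11 for piericidin and -0.52 ± 0.065, adjusted p = 7.41e-08 for oligomycin. Antimycin lowered G6pdx more than piericidin did (-0.67 ± 0.068, adjusted p = 2.78e-09). Of the 2 genes, G6pdx has the ARE core in the window shown above and Nqo1 does not. Sequence further upstream was not searched, so an ARE of Nqo1 outside the window would be missed.

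The thiol and glutathione genes changed by less than 1 on the log2 scale. Txnrd1, the cytosolic thioredoxin reductase, was at 83.8, 88.0 and 75.8 CPM with DMSO, 139, 114 and 157 CPM with piericidin, 118, 118 and 143 CPM with oligomycin and 93.5, 83.4 and 113 CPM with antimycin. It rose with piericidin (0.76 ± 0.17, adjusted p = 0.000314) and oligomycin (0.63 ± 0.17, adjusted p = 0.00279), while with antimycin its samples overlapped those of DMSO (0.27 ± 0.17, adjusted p = 0.172). Srxn1, which repairs over-oxidized peroxiredoxins, rose with piericidin (0.30 ± 0.10, adjusted p = 0.0123) and oligomycin (0.24 ± 0.10, adjusted p = 0.0495), and the calls were lost under 3 of 9 and 7 of 9 alternatives. Osgin1, an oxidative stress-induced growth inhibitor, rose with antimycin (0.57 ± 0.16, adjusted p = 0.0025) and piericidin (0.42 ± 0.16, adjusted p = 0.0238) to 13.4 to 16.8 CPM from 10.1 to 11.5 CPM, and these calls were lost under 2 of 9 and 4 of 9 alternatives. Gclc, the catalytic subunit of the enzyme that starts glutathione synthesis, was at 10.2, 6.64 and 10.9 CPM with DMSO and 12.4, 13.5 and 13.03 CPM with antimycin. Its calls for antimycin (0.54 ± 0.20, adjusted p = 0.0194) and piericidin (0.51 ± 0.20, adjusted p = 0.0297) were lost under 1 of 9 and 4 of 9 alternatives, with log2 fold changes of 0.27 and 0.14 without the samples numbered 2. The Txnrd1 call for oligomycin was lost without the samples numbered 3 (0.45). Gclm, the modifier subunit that pairs with Gclc, and Gsr, glutathione reductase, passed the test with none of the 3 inhibitors. For piericidin, antimycin and oligomycin, Gclm changed by 0.081 ± 0.18, 0.13 ± 0.18 and 0.13 ± 0.18. Gsr changed by -0.62 ± 0.40, -0.62 ± 0.40 and -0.39 ± 0.39.

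By count, piericidin changed 8 of the 10 genes (6 higher, 2 lower), against 61.7% of all genes tested. Antimycin changed 6 (63.2% of all) and oligomycin 6 (50.8% of all). These shares of the 10 genes were not far from the shares of all genes. The median log2 fold change of the 10 was 0.36, 0.21 and 0.060, beside medians of -0.0037, -0.0048 and -0.015 over all genes. Between inhibitors, 3 of the 10 differed for antimycin against piericidin (37.2% of all genes), 6 for antimycin against oligomycin (50%) and 6 for piericidin against oligomycin (39.2%). Of the last, Gclc was lost under 8 of 9 alternatives (0.25 without the samples numbered 2), Nfe2l2 under 2 of 9 and Osgin1 and G6pdx under 1 of 9 each, and without the samples of 1 replicate number 3 to 4 genes were called. Txnrd1 was lost under 3 of 9 for antimycin against piericidin and Gclc under 2 of 9 for antimycin against oligomycin. The comparisons with DMSO share their DMSO samples, and those between inhibitors share inhibitor groups. All 3 DMSO samples of the control line had label codes that read as outer wells of a plate, against 1, 0 and 1 of 3 with piericidin, antimycin and oligomycin. The codes have rows from A to H, more than the culture plates that the study describes for these cells, so they are not culture wells. Which later plate they belong to is not given in the sources used here, so the reading is uncertain. With outer wells as a term in the model the counts were 8, 7 and 7, but the genes called were not all the same. Osgin1 with piericidin and Srxn1 with oligomycin were lost, and genes not called before were added. Txnrd1 with oligomycin was then 0.40.

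**Figure D1:**
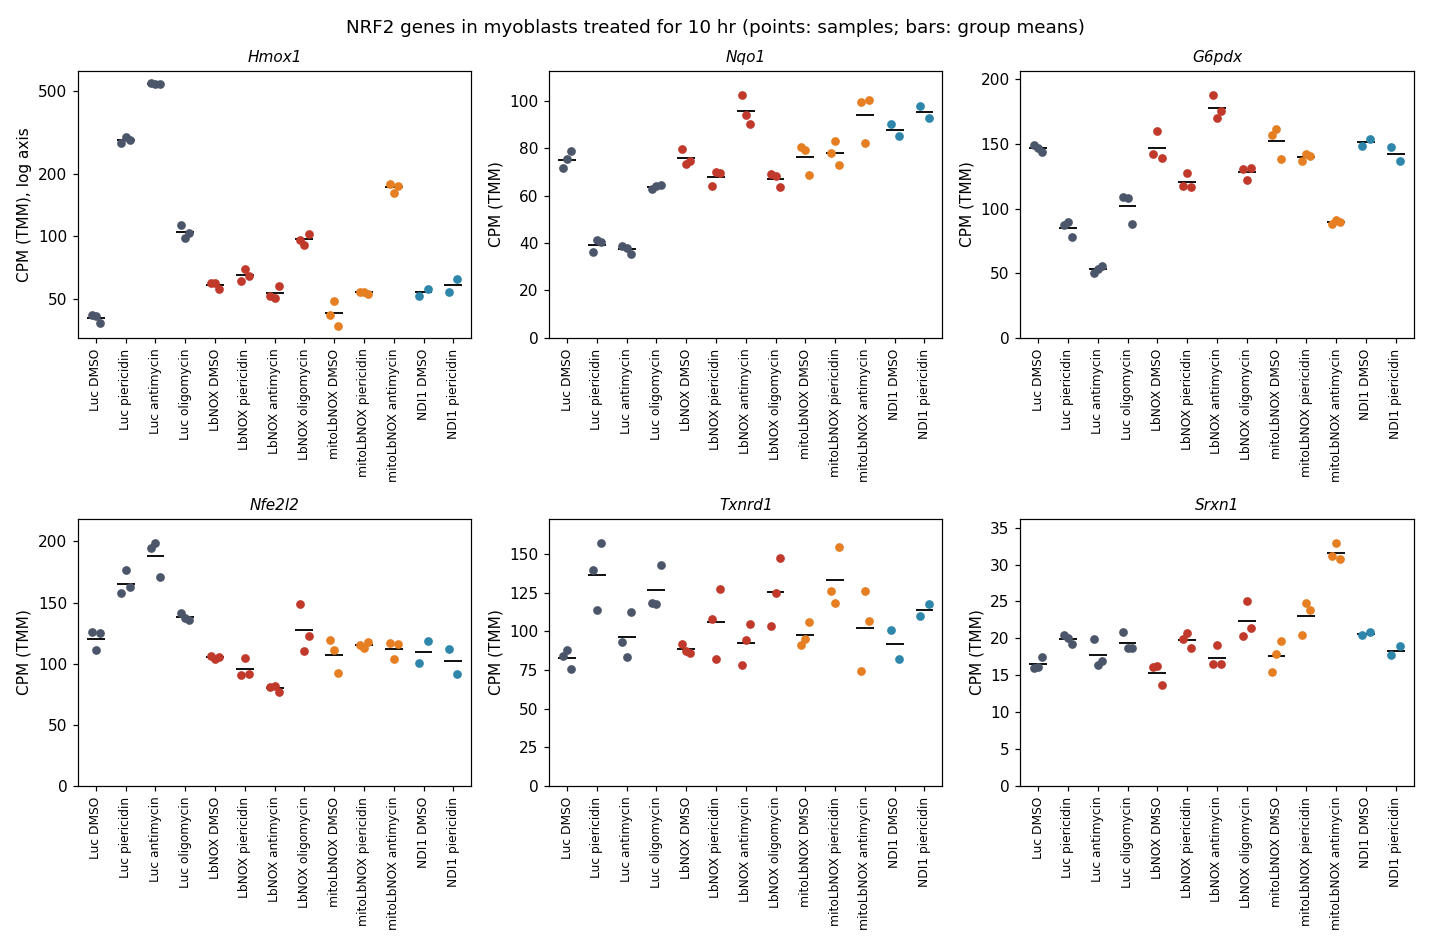
Level of 6 NRF2 genes in every myoblast sample treated for 10 hr, as TMM-scaled CPM (log axis for Hmox1, linear axes from 0 for the others). Points are samples, bars are group means and colours are the lines. In the control line (Luc) Hmox1 climbed from DMSO to antimycin and Nqo1 and G6pdx dropped, whereas in LbNOX cells antimycin left Hmox1 at 50.2 to 57.4 CPM and G6pdx at 170.1 to 188 CPM.

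The responses of Hmox1, Nqo1, G6pdx and Nfe2l2 to piericidin and to antimycin differed between LbNOX cells and control cells. With LbNOX, Hmox1 was at 59.8, 59.4 and 55.9 CPM with DMSO, 61.0, 69.3 and 64.6 CPM with piericidin and 51.7, 50.2 and 57.4 CPM with antimycin. The piericidin samples lay just above the DMSO samples, and the antimycin samples overlapped them. Neither Hmox1 response passed the test (0.18 ± 0.072, adjusted p = 0.122 and -0.098 ± 0.073, adjusted p = 0.281), and the difference from the response of the control line was -2.70 ± 0.10 for piericidin (adjusted p = 4.28e-19) and -3.88 ± 0.10 for antimycin (adjusted p = 2.38e-23). Oligomycin still raised Hmox1 in LbNOX cells, to 96.3, 90.7 and 103 CPM (0.76 ± 0.071, adjusted p = 6.37e-10), by less than in the control line (difference -0.63 ± 0.10, adjusted p = 9.33e-05). Under DMSO, LbNOX cells held more Hmox1 than control cells (0.52 ± 0.073, adjusted p = 2.21e-05), and with oligomycin the means were 105 CPM in control and 96.6 CPM in LbNOX cells. Oligomycin also raised Srxn1 (0.56 ± 0.10, adjusted p = 6.56e-05), Txnrd1 (0.53 ± 0.17, adjusted p = 0.0148) and Nfe2l2 (0.30 ± 0.087, adjusted p = 0.00721) in LbNOX cells, and lowered Osgin1 (-0.48 ± 0.17, adjusted p = 0.0269), which reached its lowest mean of all conditions, and G6pdx (-0.17 ± 0.065, adjusted p = 0.0429). The calls of Osgin1, G6pdx, Txnrd1 and Nfe2l2 were lost under 5 of 9, 6 of 9, 2 of 9 and 1 of 9 alternatives, with G6pdx ranging from -0.22 to -0.091 and Nfe2l2 at 0.18 without the samples numbered 1.

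Under antimycin, 3 of the genes moved in opposite directions in LbNOX and control cells. Nqo1 was at 79.8, 73.4 and 74.7 CPM with DMSO and 102, 94.2 and 90.03 CPM with antimycin, a rise (0.37 ± 0.069, adjusted p = 5.67e-05) where the control line fell. G6pdx was at 142, 159.7 and 139 CPM with DMSO and 188, 170.1 and 175 CPM with antimycin, also a rise (0.31 ± 0.064, adjusted p = 0.000182). Nfe2l2 was at 106, 104 and 106 CPM with DMSO and 81.3, 81.4 and 76.6 CPM with antimycin, a fall (-0.37 ± 0.088, adjusted p = 0.000992) where the control line rose. The antimycin samples did not overlap the DMSO samples for any of the 3, and the G6pdx call was lost without the samples numbered 1 (0.22). As an interaction, the responses of the 2 lines differed by 1.34 ± 0.0999 for Nqo1 (adjusted p = 1.92e-12), 1.74 ± 0.093 for G6pdx (adjusted p = 7.61e-16) and -1.05 ± 0.12 for Nfe2l2 (adjusted p = 2.19e-08). Of the 10 genes, 3 were called for antimycin in LbNOX cells (46.1% of all genes), 2 for piericidin (8.87%) and 6 for oligomycin (35.2%). The piericidin calls in LbNOX cells were a fall of G6pdx, from 142, 159.7 and 139 CPM to 118, 127 and 117 CPM (-0.26 ± 0.065, adjusted p = 0.00845), and a rise of Srxn1 (0.38 ± 0.10, adjusted p = 0.0155), lost under 2 of 9 and 5 of 9 alternatives. The responses themselves differed between LbNOX and control cells at 4 of the genes for antimycin (51.5% of all), 4 for piericidin (44.3%) and 2 for oligomycin (7.98%). Under DMSO, 1 of the 10, Hmox1, differed between the lines (2.68%).

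In mitoLbNOX cells the Hmox1 response to piericidin was small and that to antimycin remained large. Hmox1 was at 41.7, 49.0 and 37.2 CPM with DMSO, 54.0, 54.2 and 52.9 CPM with piericidin and 179, 162 and 175 CPM with antimycin. Piericidin gave a small rise (0.35 ± 0.073, adjusted p = 0.00107) and antimycin a larger one (2.06 ± 0.073, adjusted p = 2.32e-20), and both were under those of the control line (interactions -2.53 ± 0.10, adjusted p = 2.48e-18 and -1.73 ± 0.10, adjusted p = 4.23e-14). Nqo1 rose with antimycin, from 80.7, 79.1 and 68.6 CPM to 99.5, 82.4 and 100.2 CPM (0.35 ± 0.069, adjusted p = 0.000104, and 0.22 without the samples numbered 3), while G6pdx fell, from 157, 161 and 138 CPM to 88.1, 91.0 and 89.7 CPM (-0.72 ± 0.065, adjusted p = 1.46e-10). Under antimycin both genes fell in the control line and both rose in the LbNOX line. Srxn1 reached its highest level of all 35 conditions there, at 31.1, 32.9 and 30.7 CPM against 15.5, 17.9 and 19.6 CPM (0.89 ± 0.10, adjusted p = 1.22e-08), and its response exceeded that of the control line (0.73 ± 0.14, adjusted p = 0.000207). Gclm was also highest there, at 21.7, 26.8 and 27.1 CPM against 17.0, 12.6 and 21.4 CPM (0.62 ± 0.17, adjusted p = 0.00411), a call lost without the samples numbered 2 (0.35), and the Hmox1 call for piericidin was lost under 2 of 9 alternatives. Srxn1 was the other gene called with piericidin (0.41 ± 0.10, adjusted p = 0.00617), lost under 4 of 9. The counts were 5 of 10 for antimycin (47.7% of all genes) and 2 for piericidin (11.2%), with 5 (31.7%) and 5 (42.8%) interactions with the control line. Under DMSO none of the 10 differed from the control line in edgeR (1.77% of all genes), none at an unadjusted p under 0.05, and none with DESeq2.

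No Hmox1 rise with piericidin passed the test in NDI1 cells, which had 2 samples a group. Hmox1 was at 51.4 and 56.0 CPM with DMSO and 54.2 and 62.3 CPM with piericidin, and the samples overlapped (0.15 ± 0.088, adjusted p = 0.641, 95% interval -0.035 to 0.33). None of the 10 genes was called in edgeR (0.00835% of all genes), 2 had an unadjusted p under 0.05 (Gclm and Gsr), and none was called with DESeq2. The responses of 6 of the 10 differed from the control line (42.7% of all genes), with Hmox1 at -2.73 ± 0.11 (adjusted p = 3.24e-18), Nqo1 at 1.05 ± 0.11 and G6pdx at 0.69 ± 0.10. The differences of Gsr and Nfe2l2 were lost without the samples numbered 2 (1.54 to 0.64 and -0.57 to -0.19), Gsr was 2.36 without the samples numbered 1, where a group of 1 sample is assumed to vary like the other groups, and that of Srxn1 under 4 of 9 alternatives. Under DMSO, NDI1 cells held more Hmox1 than control cells (0.40 ± 0.081, adjusted p = 0.00191), the single member called (4.61% of all), and that call was lost under 2 of 9 alternatives.

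**Figure D2:**
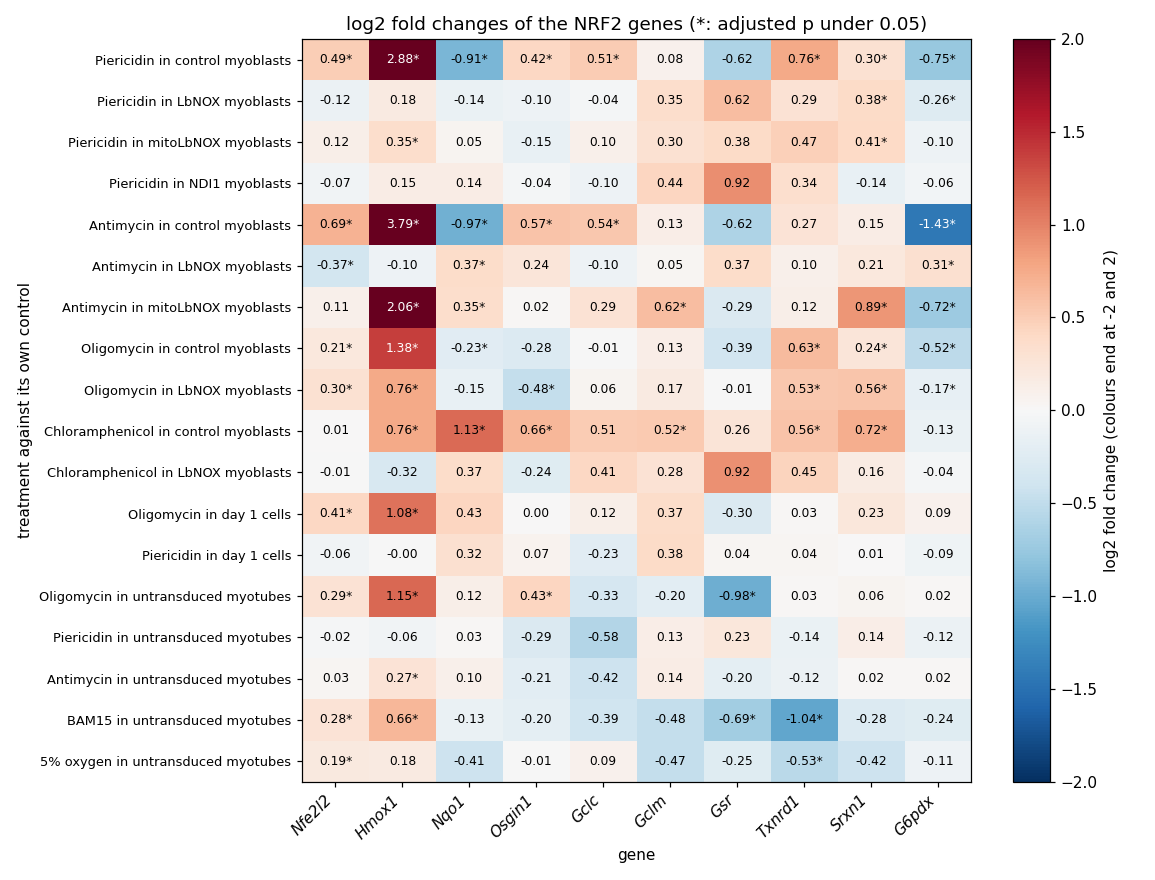
log2 fold change of each of the 10 NRF2 genes (columns) in 18 treatments against their own controls (rows); an asterisk marks an adjusted p under 0.05 and the colour scale ends at -2 and 2. Hmox1 had the largest rises (3.79 for antimycin in control myoblasts), Nqo1 and G6pdx were blue with piericidin and antimycin in control myoblasts, and chloramphenicol in control myoblasts had 6 called rises and no called fall.

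Chloramphenicol, which blocks mitochondrial translation, was applied for 48 hr and had 2 samples a group. In control myoblasts 6 of the 10 genes rose and none fell (8.45% of all genes were called), and the median log2 fold change was 0.54 beside 0.0066 over all genes. Nqo1 was at 61.5 and 63.3 CPM with DMSO and 142 and 123 CPM with chloramphenicol, the highest Nqo1 level of all conditions and a rise of 2.19-fold (log2 fold change 1.13 ± 0.084 (SE), adjusted p = 7.35e-05). Hmox1 went from 46.3 and 50.9 CPM to 85.7 and 73.9 CPM (0.76 ± 0.098, adjusted p = 0.00193). Both calls held under every alternative run.

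Srxn1 rose from 17.0 and 14.8 CPM to 23.9 and 26.6 CPM (0.72 ± 0.16, adjusted p = 0.0247), Osgin1 from 13.1 and 12.2 CPM to 18.9 and 19.7 CPM (0.66 ± 0.15, adjusted p = 0.0309), Txnrd1 from 93.1 and 73.4 CPM to 113 and 125 CPM (0.56 ± 0.12, adjusted p = 0.0238) and Gclm from 14.9 and 14.3 CPM to 19.3 and 21.2 CPM (0.52 ± 0.13, adjusted p = 0.0408). The 2 treated samples lay above the 2 DMSO samples for each of these 4, and each call was lost under some alternatives (1 of 8, 6 of 8, 3 of 8 and 7 of 8). Txnrd1 ranged from 0.28 to 0.84, with 0.28 without the samples numbered 2 (adjusted p = 0.702 in edgeR). Nfe2l2 did not pass the test (0.013 ± 0.065, 95% interval -0.14 to 0.16), nor did G6pdx pass the test (-0.13 ± 0.069, adjusted p = 0.291). Nqo1 rose with chloramphenicol and fell with piericidin and antimycin in the same line, at different times and in different media, and these responses were not tested against each other.

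In LbNOX cells chloramphenicol left Hmox1 at 49.5 and 55.3 CPM against 64.9 and 68.5 CPM (-0.32 ± 0.099, adjusted p = 0.247), and Nqo1 at 78.7 and 79.2 CPM against 59.6 and 65.3 CPM (0.37 ± 0.085, adjusted p = 0.117). None of the 10 was called in edgeR (0.931% of all genes), 4 had an unadjusted p under 0.05 and 1 was called with DESeq2. The responses of the 2 lines differed for Hmox1 (-1.08 ± 0.14, adjusted p = 0.0157) and Nqo1 (-0.76 ± 0.12, adjusted p = 0.0367), 2 of 10 against 0.53% of all genes. Each of these calls was lost under 1 of 8 alternatives.

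**Figure D3:**
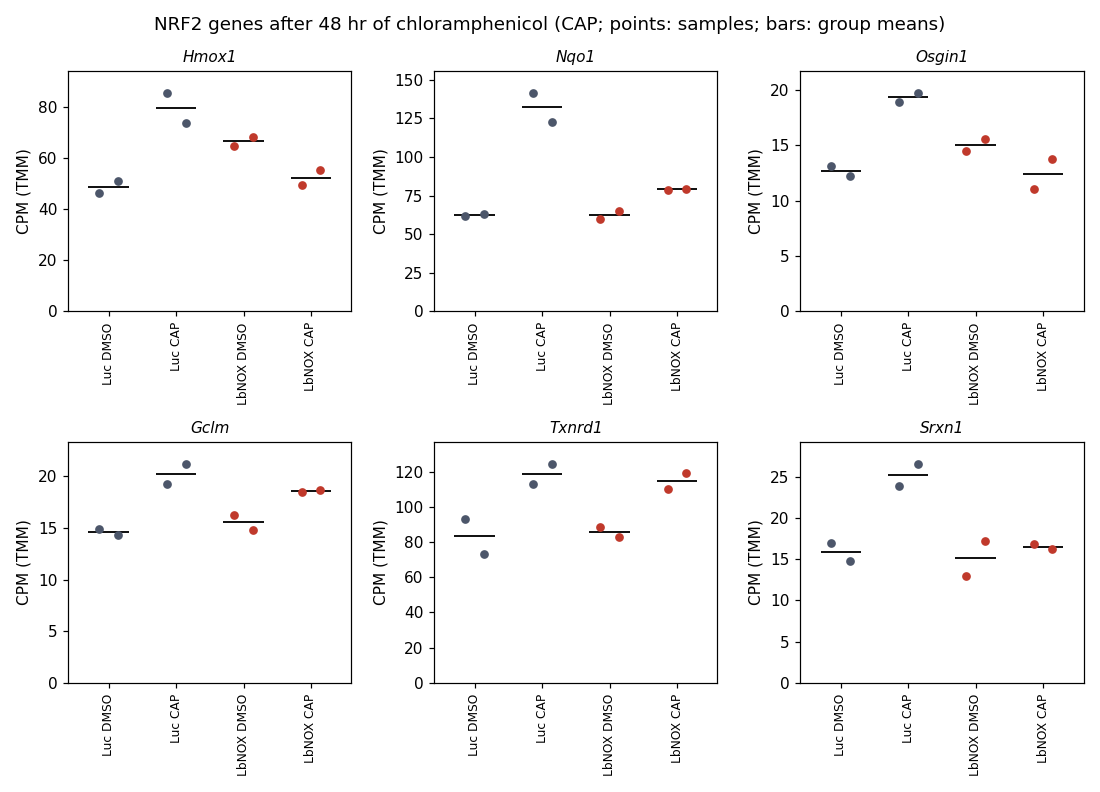
CPM of 6 NRF2 genes after 48 hr of DMSO or chloramphenicol (CAP) in luciferase (Luc, grey) and LbNOX (red) myoblasts; points are the 2 samples of each group and bars their means. In Luc cells both CAP points sit above both DMSO points in all 6 panels, and in LbNOX cells Hmox1 sits lower with CAP (49.5 and 55.3 CPM) than with DMSO (64.9 and 68.5 CPM).

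Most of the genes were lower in day 1 cells than in control myoblasts before any inhibitor was added. Under DMSO, 9 of the 10 differed between day 1 cells and control myoblasts (63.6% of all genes), 8 lower and 1 higher. Nqo1 was at 9.54, 7.93 and 8.10 CPM in day 1 cells and 6.07, 8.05 and 4.73 CPM in myotubes, against 71.5 to 78.8 CPM in myoblasts (-3.14 ± 0.13, adjusted p = 7.18e-19 for day 1 cells). G6pdx was at 35.1, 31.9 and 38.3 CPM and 26.7, 28.7 and 27.3 CPM, against 144 to 149 CPM in myoblasts (-2.06 ± 0.098, adjusted p = 4.43e-17). Gclm (-1.82 ± 0.22, adjusted p = 4.35e-08), Gsr (-1.31 ± 0.26, adjusted p = 6.61e-05), Gclc (-1.09 ± 0.25, adjusted p = 0.00042), Txnrd1 (-1.06 ± 0.13, adjusted p = 5.37e-08) and Srxn1 (-0.89 ± 0.16, adjusted p = 1.66e-05) were lower as well, and the Gclc call was lost without the samples numbered 3 (-0.66). Hmox1 was lower by less (-0.31 ± 0.061, adjusted p = 7.26e-05) and Osgin1 was higher (0.78 ± 0.13, adjusted p = 1e-05). Nfe2l2 did not pass the test (120.3, 131 and 135 CPM in day 1 cells and 128, 118 and 115 CPM in myotubes), with a day 1 difference of 0.0997 ± 0.062 (adjusted p = 0.16). Between day 1 cells and myotubes 3 of 10 were called (35.6% of all), a share near that of all genes. Nqo1 and G6pdx were lower (-0.40 ± 0.15 and -0.32 ± 0.10) and Gsr higher (0.68 ± 0.27), calls that were lost under 4 of 9, 3 of 9 and 5 of 9 alternatives. The Nqo1 difference ranged from -0.73 to -0.30, with -0.73 without the samples numbered 2. Myotubes were not tested directly against myoblasts. With outer wells as a term only the Nqo1 call of these 3 remained, and the Gsr difference was 0.16 (adjusted p = 0.757). All 9 day 1 samples had outer-well codes. The myoblasts also differed from the other cells by luciferase and doxycycline, so that state and transgene cannot be told apart, and in RNA from whole wells a lower share of cells and less RNA per cell cannot be separated either. The proliferation marker Mki67 moved the same way, from 46.1 to 127 CPM in myoblasts to at most 21.6 CPM in the rest. Its part in these results was not tested.

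**Figure D4:**
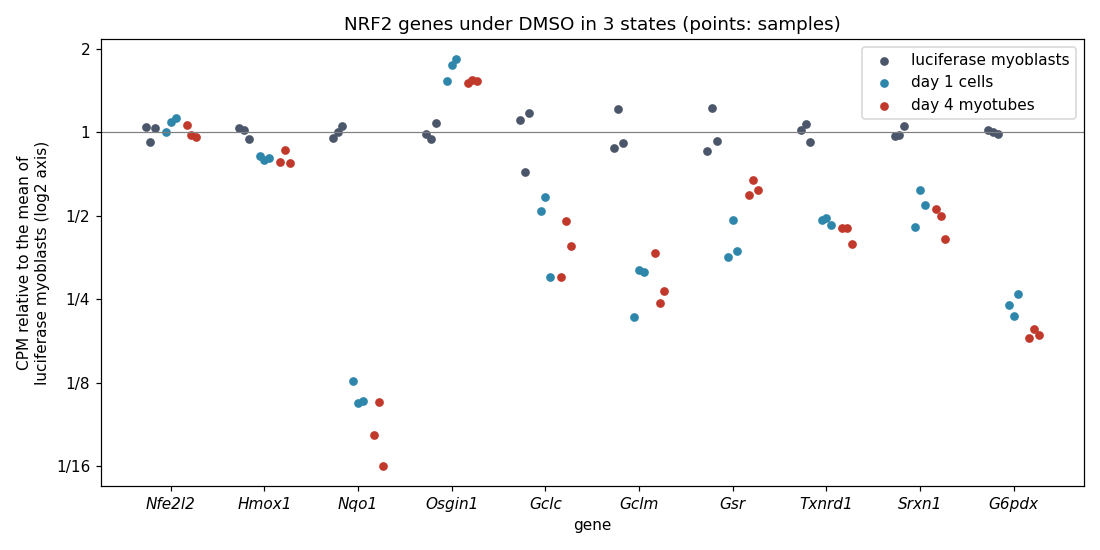
Level of the 10 NRF2 genes under DMSO, divided by the mean of luciferase myoblasts (log2 axis; points are samples, 3 a state). Nqo1 sits lowest in day 1 cells and myotubes (4.73 to 9.54 CPM against 71.5 to 78.8 CPM), Nfe2l2 stays near the line, and every Osgin1 sample of day 1 cells and myotubes sits above it.

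In untransduced myotubes the largest Hmox1 rise came with oligomycin. It was at 31.5, 34.9 and 31.3 CPM with DMSO, 32.0, 30.2 and 31.1 CPM with piericidin, 37.8, 37.1 and 42.6 CPM with antimycin and 74.8, 72.1 and 69.6 CPM with oligomycin. Oligomycin gave a rise of 2.22-fold (log2 fold change 1.15 ± 0.083 (SE), adjusted p = 5.58e-11), antimycin a small one (0.27 ± 0.084, adjusted p = 0.0343) that was lost under 7 of 9 alternatives (0.18 without the samples numbered 3), and piericidin none that passed (-0.064 ± 0.087, 95% interval -0.24 to 0.12). Compared with control myoblasts, the Hmox1 response of myotubes differed by -3.47 ± 0.085 for antimycin (adjusted p = 3.81e-23) and -2.90 ± 0.087 for piericidin (adjusted p = 4.71e-21), and by -0.23 ± 0.084 for oligomycin (adjusted p = 0.0391), a call lost under 6 of 9 alternatives. Nqo1 and G6pdx passed the test with none of the 3 inhibitors in myotubes, with log2 fold changes of -0.12 to 0.12, and the difference from the response of control myoblasts was 1.49 ± 0.14, adjusted p = 8.18e-10 for G6pdx and 1.12 ± 0.19, adjusted p = 1.56e-05 for Nqo1 with antimycin. Interactions were called for 8 of 10 with piericidin (46.5% of all genes), 6 with antimycin (47.9%) and 4 with oligomycin (29%).

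Oligomycin called 4 of the 10 in myotubes (33.3% of all genes). Besides Hmox1, Nfe2l2 rose (0.29 ± 0.054, adjusted p = 0.000176), Osgin1 rose from 16.1, 16.5 and 16.4 CPM to 21.98, 25.5 and 18.2 CPM (0.43 ± 0.14, adjusted p = 0.0196), and Gsr fell from 8.96, 10.2 and 9.37 CPM to 4.38, 4.42 and 5.64 CPM (-0.98 ± 0.22, adjusted p = 0.00108). The groups did not overlap for any of these. The Osgin1 response to oligomycin was higher in myotubes than in control myoblasts (-0.28 ± 0.16 there), and the difference passed the test (0.71 ± 0.19, adjusted p = 0.00593). The Osgin1 rise in myotubes was lost under 4 of 9 alternatives and the difference under 1 of 9. Antimycin called 1 of 10 (12.9% of all genes). Piericidin called none in edgeR (8.99% of all), none at an unadjusted p under 0.05 and none with DESeq2.

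Hmox1 and Osgin1 were lower where piericidin, BAM15 or 5% oxygen was combined with oligomycin. With piericidin added, Hmox1 went to 44.7, 40.6 and 41.3 CPM (-0.78 ± 0.081, adjusted p = 8.34e-08 against oligomycin alone), with BAM15 added to 53.5, 55.7 and 62.0 CPM (-0.34 ± 0.080, adjusted p = 0.00203) and in 5% oxygen to 37.6, 44.4 and 39.1 CPM (-0.82 ± 0.082, adjusted p = 1.85e-08). Each group lay under the oligomycin samples and above the DMSO samples of room-air myotubes. Osgin1 was called lower with each of the 3 as well (-0.55 ± 0.14, -0.62 ± 0.14 and -0.50 ± 0.14), whereas Nfe2l2 fell with piericidin (-0.20 ± 0.054, adjusted p = 0.00878) and 5% oxygen (-0.19 ± 0.054, adjusted p = 0.00701) but not with BAM15 (0.0054 ± 0.054, adjusted p = 0.96). Gsr rose with piericidin added (0.82 ± 0.22, adjusted p = 0.00856), Txnrd1 fell with BAM15 added (-0.69 ± 0.18, adjusted p = 0.00459) and G6pdx fell in 5% oxygen (-0.25 ± 0.093, adjusted p = 0.0401). Among these calls, G6pdx in 5% oxygen was lost under 5 of 9 alternatives, Gsr and Nfe2l2 with piericidin under 3 of 9 and 3 of 9, Nfe2l2 and Osgin1 in 5% oxygen under 2 of 9 and 2 of 9, and Osgin1 with piericidin and Hmox1 and Txnrd1 with BAM15 under 1 of 9 each. In all 4 of 10 were called for piericidin (20.9% of all genes), 3 for BAM15 (26.1%) and 4 for 5% oxygen (33.3%). Within 5% oxygen, oligomycin called none in edgeR (4.26% of all genes), none at an unadjusted p under 0.05 and none with DESeq2, and Hmox1 differed by 0.15 ± 0.085 (95% interval -0.025 to 0.32).

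Without oligomycin, BAM15 raised Hmox1 to 50.3, 54.1 and 49.0 CPM (0.66 ± 0.084, adjusted p = 2.11e-06) and Nfe2l2 to 146, 147 and 143 CPM (0.28 ± 0.054, adjusted p = 0.000435), and lowered Txnrd1 from 37.3, 37.2 and 32.7 CPM to 18.5, 18.7 and 14.6 CPM (-1.04 ± 0.18, adjusted p = 0.000133), its lowest level of all conditions. Gsr was also lower (-0.69 ± 0.21, adjusted p = 0.02), a call lost under 3 of 9 alternatives (-0.43 with the outer well term), giving 4 of 10 (25.4% of all genes). In 5% oxygen Txnrd1 was lower (-0.53 ± 0.18, adjusted p = 0.0299) and Nfe2l2 higher (0.19 ± 0.054, adjusted p = 0.01), 2 of 10 (22.1%), and these 2 calls were lost under 2 of 9 and 3 of 9 alternatives.

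**Figure D5:**
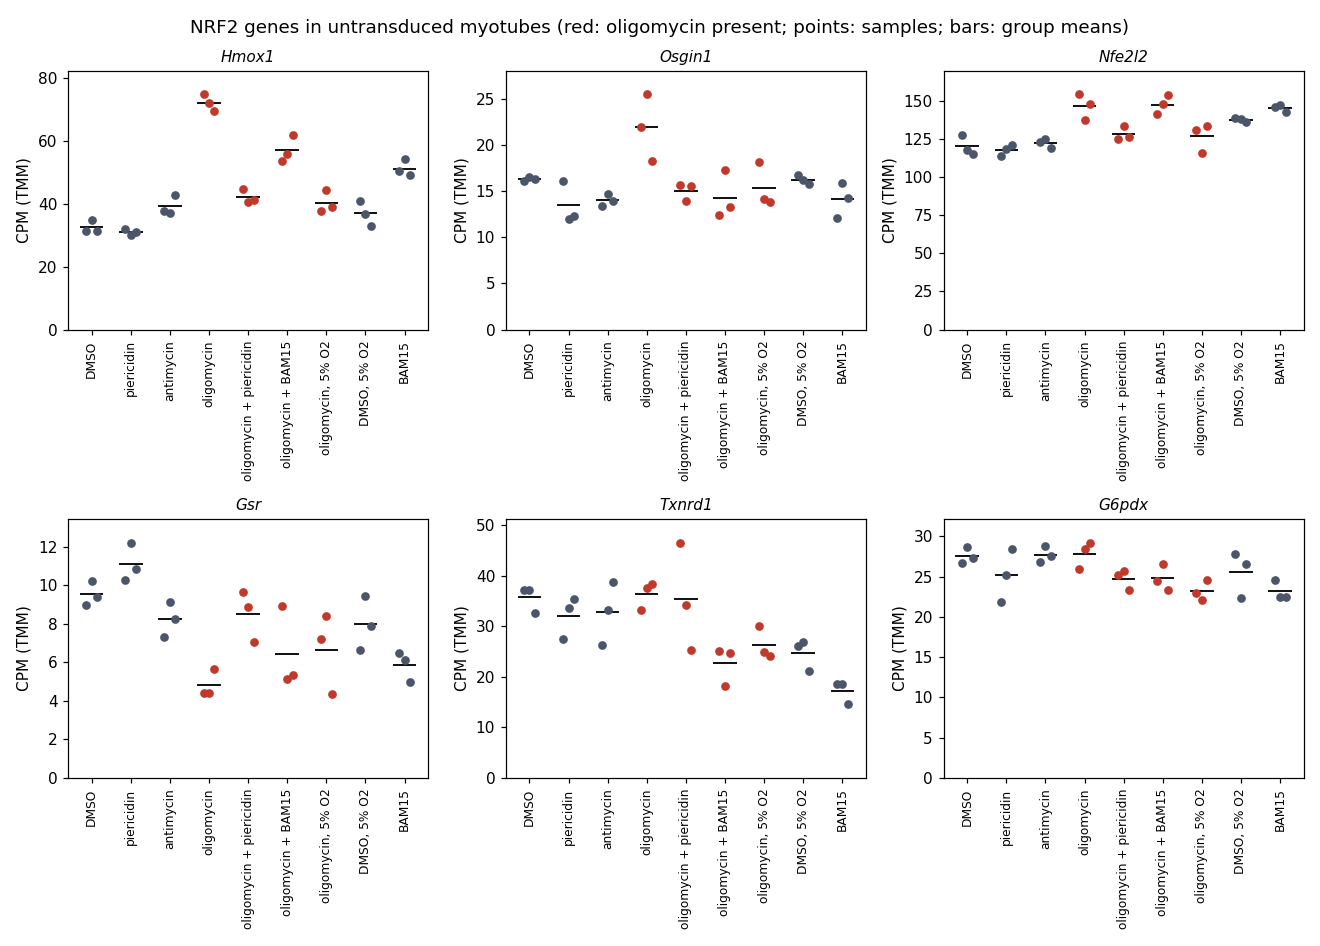
CPM of 6 NRF2 genes in untransduced myotubes under 9 conditions, on linear axes from 0; points are the 3 samples of each condition, bars their means, and red marks oligomycin. Hmox1 and Osgin1 peak with oligomycin alone (Hmox1 69.6 to 74.8 CPM) and are lower where piericidin, BAM15 or 5% oxygen was combined with it, and Txnrd1 is lowest with BAM15 (14.6 to 18.7 CPM).

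Oligomycin raised Hmox1 in myotubes with adenoviral GFP (2 samples a group) and with LbNOX. Hmox1 was at 39.0 and 40.9 CPM with DMSO and 102 and 99.2 CPM with oligomycin in GFP myotubes (1.32 ± 0.089, adjusted p = 5.84e-08), and at 42.1, 42.9 and 37.7 CPM and 91.7, 81.0 and 91.5 CPM in LbNOX myotubes (1.09 ± 0.072, adjusted p = 3.38e-08). The difference of the responses was -0.23 ± 0.11, with a 95% interval of -0.47 to 0.014, and did not pass the test (adjusted p = 0.973). No difference of responses was called for any of the 10 in edgeR (0% of all genes), none at an unadjusted p under 0.05 and none with DESeq2. Osgin1 (0.54 ± 0.16, adjusted p = 0.0269 and 0.52 ± 0.14, adjusted p = 0.00864) and Nfe2l2 (0.24 ± 0.071, adjusted p = 0.0212 and 0.28 ± 0.058, adjusted p = 0.00193) rose in both kinds of myotube, Txnrd1 rose in GFP myotubes (0.63 ± 0.20, adjusted p = 0.0326) and Gsr fell in LbNOX myotubes (-1.11 ± 0.36, adjusted p = 0.0309). In GFP myotubes the calls of Osgin1, Nfe2l2 and Txnrd1 were lost under 4 of 9, 3 of 9 and 3 of 9 alternatives, and in LbNOX myotubes those of Osgin1 and Gsr under 2 of 9 and 2 of 9. Txnrd1 in GFP myotubes ranged from 0.34 to 0.95, and leaving out samples there leaves 1 in a group, assumed to vary like the others. Oligomycin called 4 of 10 in GFP (25.9% of all genes) and 4 in LbNOX myotubes (32%). Piericidin called none in edgeR in GFP myotubes (3.09% of all; 2 at an unadjusted p under 0.05, none with DESeq2) and none in LbNOX myotubes (6.78%; 1 unadjusted, Gsr, which DESeq2 called). Under DMSO none differed between LbNOX and GFP myotubes in edgeR (0.0242% of all genes), none unadjusted and none with DESeq2.

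In day 1 cells oligomycin raised Hmox1 from 33.2, 32.0 and 32.7 CPM to 67.5, 68.7 and 67.4 CPM (1.08 ± 0.070, adjusted p = 7.46e-07) and Nfe2l2 to 162, 166 and 177 CPM (0.41 ± 0.059, adjusted p = 0.00041), 2 of 10 (20.7% of all genes). Piericidin left Hmox1 at 34.4, 32.8 and 30.0 CPM (95% interval of the log2 fold change -0.16 to 0.15) and called none of the 10 in edgeR (2.75% of all), none unadjusted and none with DESeq2.

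The wider pathway list held 35 further genes, of which 33 or 34 passed the count filter in each model. In control myoblasts 30 of 34 were called with piericidin (13 higher, 17 lower, beside 61.7% of all genes), 31 with antimycin (14 and 17, beside 63.2%) and 22 with oligomycin (10 and 12, beside 50.8%). Sqstm1, whose product p62 draws KEAP1 into autophagy, rose from 498 CPM to 4484 CPM with piericidin (3.21 ± 0.034, adjusted p = 7.45e-34), and Mafk, a small MAF partner of NRF2, rose with antimycin (2.53 ± 0.078, adjusted p = 2.37e-22). Slc7a11, the cystine importer, rose with oligomycin (3.13 ± 0.19, adjusted p = 9.74e-15) and piericidin (2.94 ± 0.19, adjusted p = 2.79e-14) from a low level of 3.64 CPM. The largest falls with piericidin were those of Idh1, the cytosolic isocitrate dehydrogenase (-2.80 ± 0.10, adjusted p = 2.56e-20), Ephx1, an epoxide hydrolase (-1.47 ± 0.091, adjusted p = 1e-14), and Akr1b8, an aldo-keto reductase (-1.47 ± 0.094, adjusted p = 2.59e-14). Gsta4, a glutathione transferase for lipid aldehydes, rose with antimycin in control (1.96), LbNOX (0.86) and mitoLbNOX cells (2.85). Its level in mitoLbNOX cells reached 373 CPM, from 53.5 CPM.

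With antimycin in LbNOX cells 20 of 34 rose and 3 fell (median 0.25, beside 0.029 over all genes, of which 46.1% were called). With chloramphenicol 13 rose and 1, Idh1, fell in control cells (8.45% of all genes were called), led by Slc7a11 (3.35 ± 0.20, adjusted p = 1.91e-05), Gsta4 (2.78 ± 0.093, adjusted p = 8.69e-07) and Sqstm1 (1.18 ± 0.050, adjusted p = 3.16e-06), while in LbNOX cells 2 were called, Slc7a11 and Gsta4 (beside 0.931% of all). In untransduced myotubes oligomycin called 22 of 34 (12 higher, 10 lower, beside 33.3% of all genes), with Slc7a11 (1.64 ± 0.30, adjusted p = 0.000126), Slc40a1, the iron exporter ferroportin (1.02 ± 0.11, adjusted p = 8.73e-08), and Sqstm1 (0.97 ± 0.026, adjusted p = 3.69e-19) the largest rises and Ugdh, which makes UDP-glucuronate (-0.67 ± 0.071, adjusted p = 5.25e-08), the largest fall. In 5% oxygen Slc40a1 fell (-1.06 ± 0.12, adjusted p = 3.23e-07).

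Across the mean levels of the 35 conditions, Nqo1, Gclm, Srxn1, Txnrd1 and G6pdx each had another of the 10 genes at a Pearson's r of 0.95 or more, and Hmox1, Nfe2l2 and Osgin1 had at most 0.56. The conditions share cell state and control samples, so the correlations are a description. The nearest fellow of Srxn1 was Gclm (0.96), that of Gclm and of G6pdx was Nqo1 (0.98 for each), that of Nqo1 was Gclm, and that of Txnrd1 was Gclm (0.95). These 5 pairings ranked 1, 2, 48, 15 and 68 among 13357 genes. For Hmox1 the nearest fellow was Gclc (0.56) at rank 1740, and for Nfe2l2 it was Osgin1 (0.52) at rank 924.

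By Pearson's r the genes most like each of the 10 were Zbtb21 (0.95) and Rbsn (0.94) for Hmox1, Dctn4 (0.93) and Hbs1l (0.90) for Nfe2l2, Hp1bp3 (0.85) and Spsb2 (0.82) for Osgin1, Wdhd1 (0.98) and Dnph1 (0.98) for Nqo1, and Pbld1 (0.98) and Nqo1 for Gclm. They were Gclm and Nme2 (0.96) for Srxn1, Nup155 (0.99) and Nup85 (0.99), nuclear pore genes, for G6pdx, Hspe1 (0.97) and Hspd1 (0.97), the mitochondrial chaperonins, for Txnrd1, Flna (0.96) and Tagln2 (0.96) for Gclc, and Emilin2 (0.96) and Ctnnbip1 (0.95) for Gsr. The order depended on the measure. By Spearman's rho the leading pair was the same for Gsr alone, and it was Dennd4a (0.93) and Hspa9 (0.92) for Hmox1, Slc48a1 (0.95) and Pbld1 (0.92) for Gclm, Mrpl58 (0.94) and Gsta4 (0.93) for Srxn1, Ran (0.95) and Rcc1 (0.95) for Txnrd1 and Hirip3 (0.97) and Zmym1 (0.95) for G6pdx. The nearest fellow by rho was Txnrd1 for Hmox1 (0.62) and for Srxn1 (0.92), and Nqo1 for G6pdx (0.86) at rank 463.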

How the data were processed

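RNA of C2C12 cells was sequenced from 96 samples with a poly(A)-selected full-length protocol that keeps no strand. The authors estimated transcript abundance with kallisto 0.44 against mouse transcripts of GRCm38 and the transgenes, and deposited whole-number estimated counts per gene. No values were rounded further. How these estimated counts split reads between overlapping or near-identical genes cannot be checked from the table.

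A gene was kept where all samples of 1 or more conditions held 16 counts or more, judged separately in each of 6 models (10 hr myoblasts, 48 hr myoblasts, untransduced myotubes, adenoviral myotubes, day 1 cells, and cell states). The quasi-likelihood test of edgeR 4.0.16 (R 4.3.3, TMM scaling) was run on each of 46 comparisons, and p-values were adjusted by Benjamini-Hochberg across every gene in the test. A standard error is the log2 fold change divided by the root of the F statistic. Levels are CPM scaled by TMM over all samples. The script was tested on simulated data.

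The 10 genes, the wider list of 35 and the markers were chosen with earlier results of these data known. Besides the 10, up to 3 genes of the wider list in each direction could be named per comparison (largest change among those called, a mean of at least 50 counts, no overlap between groups), and the 2 genes most like each of the 10. Alternatives were DESeq2 1.42.0 size factors and Wald test, no filter, a replicate block, an outer well term, and fits of only the groups compared. Leaving out 1 replicate number in all groups of a model was chosen after the data were seen, in place of leaving samples out comparison by comparison. Outer wells were read from well-like codes in the sample labels. Their rows exceed those of the plates in which the study grew the cells. The labels do not say whether the plate held RNA or libraries, so this reading is uncertain.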

Additional observations from a re-analysis of the deposited data

Results flagged for a closer look

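Responses that differed between lines or cell states by the test of the difference itself (edgeR, adjusted p under 0.05) are given here on the log2 scale. For piericidin, the response of LbNOX myoblasts minus that of control myoblasts was -0.61 for Nfe2l2, -2.70 for Hmox1, 0.77 for Nqo1 and 0.49 for G6pdx. With antimycin the same difference was -1.05 for Nfe2l2, -3.88 for Hmox1, 1.34 for Nqo1 and 1.74 for G6pdx. With oligomycin it was -0.63 for Hmox1 and 0.35 for G6pdx. Between mitoLbNOX and control myoblasts, the piericidin responses differed by -0.37 for Nfe2l2, -2.53 for Hmox1, 0.96 for Nqo1, -0.57 for Osgin1 and 0.65 for G6pdx. Their antimycin responses differed by -0.58 for Nfe2l2, -1.73 for Hmox1, 1.32 for Nqo1, 0.73 for Srxn1 and 0.71 for G6pdx. Between NDI1 and control myoblasts, the piericidin responses differed by -0.57 for Nfe2l2, -2.73 for Hmox1, 1.05 for Nqo1, 1.54 for Gsr, -0.45 for Srxn1 and 0.69 for G6pdx. The chloramphenicol responses of LbNOX and control myoblasts differed by -1.08 for Hmox1 and -0.76 for Nqo1. Some of these calls were lost under alternatives. Without the samples numbered 2, Gsr and Nfe2l2 in NDI1 cells went to 0.64 (2.36 without those numbered 1; adjusted p = 0.569 in edgeR) and -0.19 (0.441), and Nfe2l2 with piericidin in mitoLbNOX cells to -0.20 (0.295). Osgin1 in mitoLbNOX and Srxn1 in NDI1 cells were lost under 4 of 9 alternatives each, G6pdx with oligomycin in LbNOX cells under 3 of 9, and Hmox1 and Nqo1 with chloramphenicol under 1 of 8 each.

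The response of untransduced myotubes minus that of control myoblasts to piericidin was -0.47 for Nfe2l2, -2.90 for Hmox1, 0.98 for Nqo1, -0.67 for Osgin1, -1.03 for Gclc, 0.89 for Gsr, -0.85 for Txnrd1 and 0.69 for G6pdx. For antimycin it was -0.61 for Nfe2l2, -3.47 for Hmox1, 1.12 for Nqo1, -0.74 for Osgin1, -0.91 for Gclc and 1.49 for G6pdx. For oligomycin it was -0.23 for Hmox1, 0.71 for Osgin1, -0.59 for Txnrd1 and 0.54 for G6pdx. Hmox1 with oligomycin was lost under 6 of 9 alternatives, Gclc with antimycin under 5 of 9 (-0.46 without the samples numbered 2), Gclc and Gsr with piericidin under 3 of 9 each (Gsr 0.36 without the samples numbered 2), Txnrd1 with oligomycin under 2 of 9 (-0.23 with the outer well term) and Osgin1 with oligomycin under 1 of 9. G6pdx with piericidin was 0.46 without the samples numbered 3. Cell state and transgene cannot be told apart in these last 3 comparisons.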

How the results depend on the processing

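None of the 151 calls changed direction under any alternative run, and 86 held under all of them. Of the rest, 26 were lost only where the samples of 1 replicate number were left out. DESeq2 size factors ended 3 calls, the DESeq2 Wald test 6, the replicate block 8, the outer well term 14, and no count filter and a fit of only the groups compared 21 each. Leaving out the samples numbered 1, 2 or 3 ended 43, 45 and 30.

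The number of the 10 genes called moved by more than 1.5 times in these cases, and the cause was not tested. Without a count filter it went from 0 to 2 for piericidin in NDI1 cells, 0 to 3 for chloramphenicol in LbNOX cells, 1 to 0 for antimycin and 2 to 1 for 5% oxygen in myotubes, 0 to 1 for piericidin in LbNOX myotubes and 0 to 1 for the difference in oligomycin response between LbNOX and GFP myotubes. With only the groups compared it went from 2 to 1 for piericidin in LbNOX cells, 1 to 0 for NDI1 against control cells in DMSO, 2 to 1 for the oligomycin response of LbNOX minus control cells, 6 to 3 for chloramphenicol in control cells, 1 to 0 for antimycin in myotubes, 4 to 2 for 5% oxygen under oligomycin, 4 to 2 for oligomycin in GFP myotubes and 0 to 1 for piericidin in LbNOX myotubes. With the outer well term it went from 1 to 0 for antimycin in myotubes, 4 to 2 for oligomycin in GFP myotubes, 0 to 1 for piericidin in LbNOX myotubes and 3 to 1 for myotubes against day 1 cells. With the DESeq2 Wald test it went from 0 to 1 for chloramphenicol in LbNOX cells, 1 to 0 for antimycin in myotubes and 0 to 1 for piericidin in LbNOX myotubes.

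Leaving out the samples of each replicate number in turn gave 5 to 8 of 10 for piericidin, 3 to 5 for oligomycin and 3 to 4 for piericidin against oligomycin in control myoblasts. It gave 0 to 1 for piericidin and 3 to 4 for oligomycin in LbNOX cells, 1 to 2 for their difference in oligomycin response, 0 to 1 for piericidin in mitoLbNOX cells, 3 to 4 and 3 to 5 for the difference in piericidin response of mitoLbNOX and NDI1 cells, and 0 to 1 for NDI1 against control cells in DMSO. Chloramphenicol in control cells gave 2 to 3, in a fit with the 10 hr myoblasts. There, and in the NDI1 and GFP groups of 2, a lone sample is assumed to vary like the other groups. In myotubes the range was 0 to 0 for antimycin, 0 to 2 for 5% oxygen, 2 to 3 for piericidin added to oligomycin, 2 to 4 for 5% oxygen under oligomycin, 1 to 4 and 2 to 4 for oligomycin in GFP and LbNOX myotubes, and 0 to 1 for piericidin in LbNOX myotubes. It was 0 to 2 for myotubes against day 1 cells and 1 to 3 for the difference in oligomycin response between myotubes and myoblasts.

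Samples with the same replicate number deviated together little on average (mean correlation of deviations -0.038 to 0.026 over the 6 models). So small a mean does not exclude that the numbers pair them. With the number as a replicate block the difference in chloramphenicol response went from 2 genes to 0 (adjusted p = 0.0569 for Hmox1 and 0.0897 for Nqo1). The outer well term could not be fitted for day 1 cells alone. Gclc had as few as 9 counts in a sample, the lowest of the 10 genes.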
